A study of Mus musculus with 24 samples.

Results

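The comparison described here was the effect of prenatal nPM on the cerebral cortex of XX neonates, measured by RNA sequencing in 3 nPM pups (libraries V09, V11 and V20) and 3 control pups (V10, V12 and V19). nPM is the nano-sized fraction of urban particulate matter, collected beside a freeway and put back into the air for inhalation. The genes were chosen by 1 rule, a count of at least 10 in each of the 6 libraries, which 16970 of the 48709 genes in the count table met. A further 13599 genes had a count in at least 1 of the 6 libraries but fell short of 10 in at least 1 of them, and were not tested in the main fit. The whole series held 24 libraries of cortex and blood from pups of both sexes, and the 6 cortex libraries of XY pups are used below for comparison.

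All pups were C57BL/6J by their labels, while the study's text names the substrain C57BL/6NJ. Their dams breathed nPM at a labelled dose of 300 mg/m3, or filtered air for the controls, in sessions of 5 h on 3 days a week from gestational day 2, so the pups met the particles only through the dam. The study's text gives the same dose in micrograms, not milligrams. The cortex was taken at a labelled age of 3 to 5 days, where the study's text gives day 5 alone, with 3 pups for each sex and exposure that came from different litters. The study's text names no transgene or engineered deletion for any group. The 6 libraries held 22301409 to 33412515 counts on genes, and the kept genes took 99.8% of them in each. RNA integrity numbers (RIN) were 9.5 to 9.9 in the nPM group and 9.4 to 9.8 in the controls. Xist, the RNA that silences 1 X chromosome in female cells, was read at 367 to 657 CPM (counts scaled to a fixed library total) in the 6 XX libraries and at 0.674 to 1.27 CPM in the 6 XY libraries, and the Y-linked Ddx3y was at or under 0.269 CPM in XX. The cortical neuron markers Tbr1, Neurod6, Slc17a7, Fezf2 and Cux2 were read in every library, the lowest being Fezf2 at 25.9 to 30.5 CPM.

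The neonatal cortex is a tissue of newly placed neurons that are growing axons, forming the first synapses and migrating, with glia and late interneurons still arriving. A bulk RNA library of it mixes spliced messenger RNA with RNA that stays in the nucleus, such as introns of long neuronal genes and nuclear non-coding RNAs like Malat1. Protein synthesis, mitochondrial respiration and splicing are run by large sets of genes whose transcripts often move together. In such a bulk sample, fewer cells of a type and less RNA per cell cannot be told apart.

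Loci in introns and nuclear non-coding genes such as Malat1 and Kcnq1ot1 had fewer counts in nPM pups, and so did coding genes that include splicing kinases and calcium and potassium channels. A smaller set was higher, led by Hap1, Zcchc12, Rps27a and several genes known from the hypothalamus. In edgeR's quasi-likelihood test with RIN as a covariate, 39 genes rose, or 0.23% of those tested, and 196 fell, or 1.15%, at a Benjamini-Hochberg adjusted p under 0.05. At the study's unadjusted threshold of 0.005, 209 genes (1.23%) were higher and 566 (3.34%) lower. All log2 fold changes below are nPM against control from this fit, with a standard error (SE) derived from its F statistic. CPM values are scaled by TMM factors, except those of Xist, Ddx3y, the cortical neuron markers above, mitochondrial genes and summed marker levels. None is adjusted for RIN.

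These counts rested on few libraries. The number of genes called ran from 16 without V11 to 388 without V09, and was 36 to 65 without any 1 of the other 4 libraries. In 1 fit of all 12 cortex libraries, in which XX and XY pups share 1 estimate of the spread, 0 genes were called for XX at the adjusted threshold, and 2165 had an unadjusted p under 0.05. With the percent of counts on TEC loci (described below) as covariate in place of RIN, a measure of which 93.8% of the variance lay between the exposure groups, 10 genes were higher and 0 lower. All 235 called genes kept their sign in the fit of 12 libraries and in each fit without 1 library. These fits reuse the XX libraries that chose the genes, so a kept sign is not independent support. A set of 15 genes passed in all 6 fits without 1 library, and of these Hap1, Zcchc12 and Gm15801 were the 3 that were higher. Many of the called genes named below passed in only 1 of these 6 fits. Among them were Rps27a, Clk1, Clk4, Cacna1d, Ryr2, Unc13b, Syn1, Nr2f2, Fabp7 and Gpx4. Exact permutation of 3 against 3 samples cannot give a p under 0.1, so the tests of single values below that reach 0.1 are at the limit of the design.

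Fold changes differed most by the kind of gene. Genes of the type TEC, short loci awaiting experimental proof that are mostly unspliced, made up 80 of the 196 genes that fell and 1 of the 39 that rose. The other genes that fell were 87 coding genes, 10 lincRNAs, 7 processed transcripts, 5 sense intronic loci and 7 of other types. Over all 885 TEC loci tested the median log2 fold change was -0.46 and 75 were above 0, against a median of 0.01 over 14177 coding genes and 0.00 over all genes. Sense intronic loci, which lie inside introns of a gene on the same strand, had a median of -0.42 over 99 loci, with 5 called lower and 0 higher. The median was -0.12 over 411 lincRNAs, and 0.08 over 551 processed pseudogenes.

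**Figure D1:**
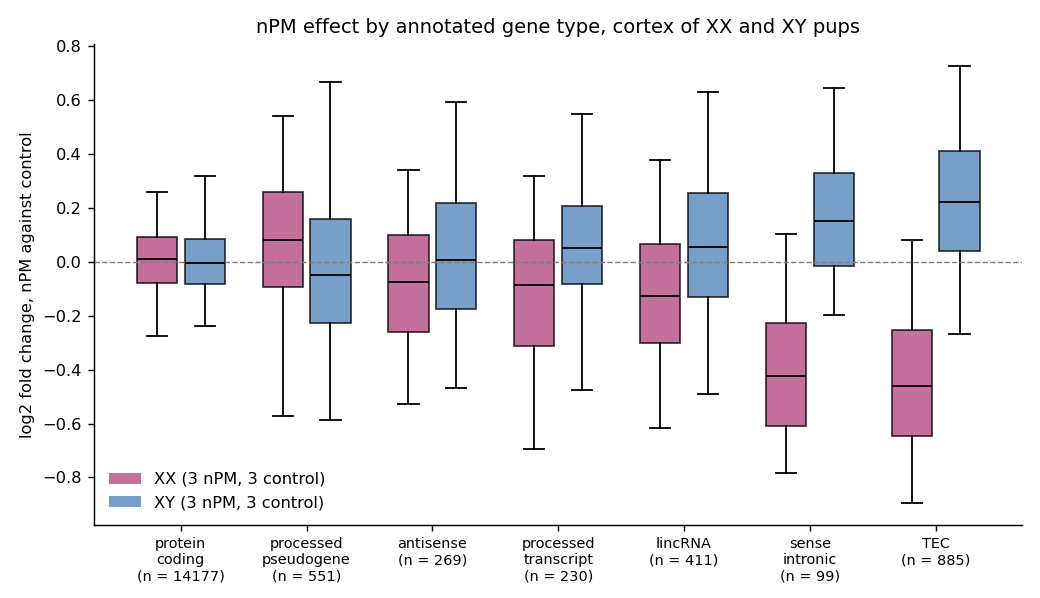
Log2 fold changes of nPM against control by annotated gene type, in XX cortex and in XY cortex for the same genes. Boxes span the quartiles with the median as a line, whiskers run from the 5th to the 95th percentile, and n is the number of genes; TEC and sense intronic loci had medians of -0.46 and -0.42 in XX and 0.22 and 0.15 in XY.

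The same shift was seen in the libraries as a whole. TEC loci took 0.286, 0.273 and 0.295% of the counts in the nPM libraries V09, V11 and V20, and 0.406, 0.369 and 0.378% in the controls V10, V12 and V19. The 2 groups did not overlap, with means of 0.285 ± 0.011% and 0.384 ± 0.0194% (SD, n = 3 each, two-sided exact permutation p = 0.1, the smallest possible). lincRNAs took 1.09, 0.992 and 1.19% in nPM and 1.40, 1.35 and 1.41% in control libraries, again without overlap and at p = 0.1 by the exact permutation test. Processed pseudogenes moved the other way, from 0.354 ± 0.00782% in controls to 0.389 ± 0.00471% in nPM (SD, n = 3 each, exact permutation p = 0.1). Coding genes as a class took 90.1 to 90.7% in nPM and 90.2 to 90.5% in control libraries, and overlapped. Among all 12 cortex libraries the 3 XX controls had the highest shares of TEC loci and lincRNAs, because the XY libraries ranged from 0.224 to 0.363% for TEC and from 0.965 to 1.31% for lincRNAs.

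**Figure D2:**
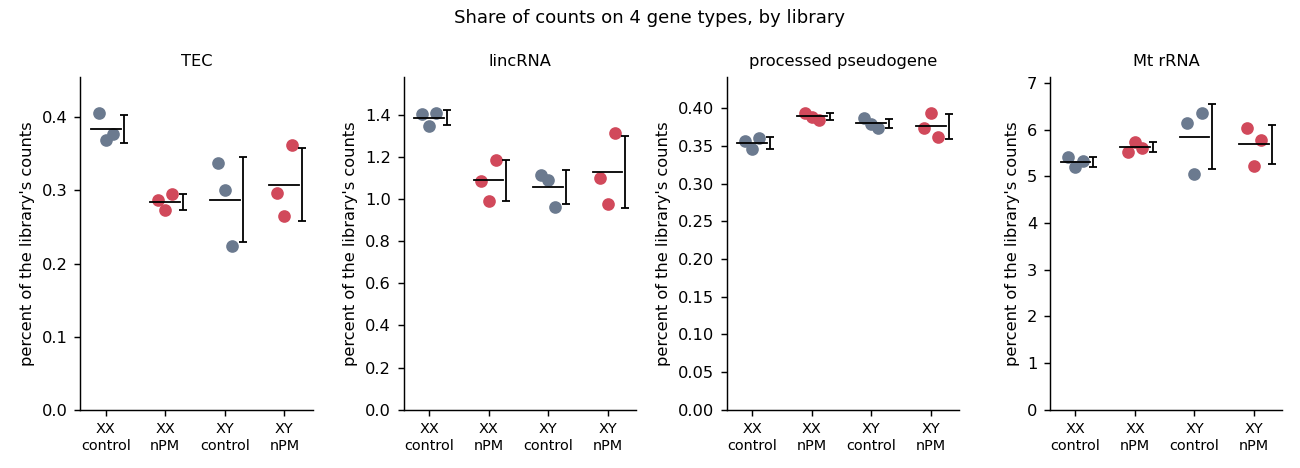
Percent of each cortex library's counts on 4 gene types, by sex and exposure. Points are libraries, lines are means and bars are SD (n = 3); for TEC loci the XX controls lie at 0.369 to 0.406% and the XX nPM libraries at 0.273 to 0.295%, while the XY groups overlap.

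Most of the TEC and sense intronic loci lay inside introns of coding genes. By the exon models of GENCODE M21, 68 of the 80 TEC loci that fell, or 85%, were within an intron of a coding gene annotated on the same strand, as were 675 of the 885 tested (76.3%). The host genes themselves, counted on exons, moved less. Of 766 intronic loci with a tested host, 709 (92.6%) had a log2 fold change below that of the host. Over 414 hosts the median was -0.44 for the loci and -0.04 for the hosts. Counts of loci and hosts are descriptions, since loci of 1 host share 1 primary transcript, and the strand setting of the authors' counting was not stated.

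Adgrb3, a brain adhesion receptor at synapses, hosted 19 such loci and 12 of them fell, which was the most of any gene. All 19 had a fold change below 0, from -0.90 to -0.41, while Adgrb3 itself had 284 CPM in nPM and 295 CPM in control libraries (log2 fold change -0.07, SE 0.06, adjusted p = 0.574). The locus Gm37895 at chr1:25775757-25780306 (mm10), in an intron of Adgrb3, was read at 20.6, 21.03 and 18.6 CPM in V09, V11 and V20 and at 31.3, 31.4 and 35.9 CPM in V10, V12 and V19. Its nPM libraries all lay below the controls (log2 fold change -0.74, SE 0.07, adjusted p = 0.00396). Dlg2, a scaffold of the postsynaptic density, hosted 18 loci of which 11 fell, and Kcnip4, a potassium channel partner, hosted 24 of which 10 fell. All of these loci had fold changes below 0, with medians of -0.67 in Dlg2 and -0.69 in Kcnip4. The hosts had log2 fold changes of -0.20 for Dlg2 (SE 0.06, adjusted p = 0.111) and -0.24 for Kcnip4 (adjusted p = 0.129), and neither passed the test. Cntnap2, a neurexin family gene, hosted 19 loci with 5 that fell and was itself at -0.04. Ctnna2 (9 loci, 4 that fell), Pcdh7 (13 and 3), Lrrtm4 (8 and 3) and Frmd4a (6 and 3) were the other hosts with at least 3 loci called.

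**Figure D3:**
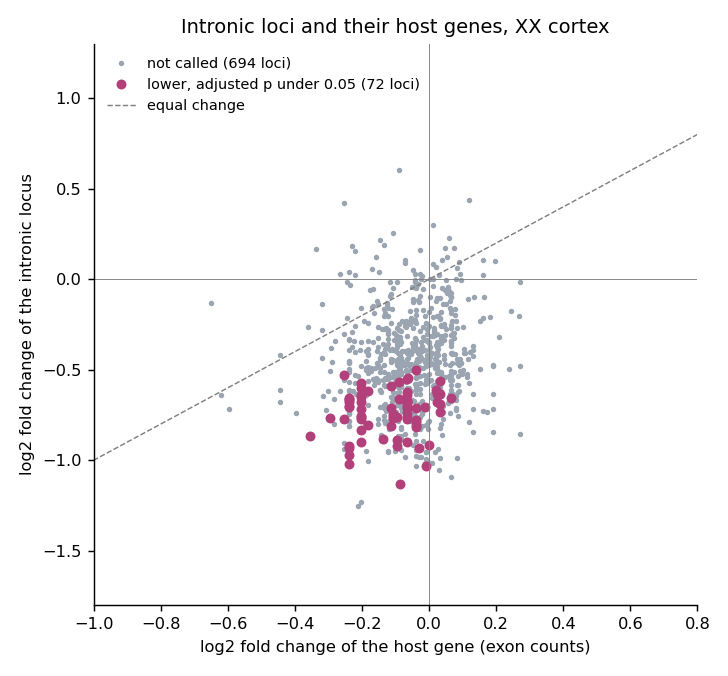
Log2 fold change of each intronic TEC or sense intronic locus (vertical) against that of the gene that hosts it, counted on exons (horizontal), in XX cortex. Of the 766 loci, 72 were called lower, and 709 lie below the dashed line of equal change.

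Malat1 and Kcnq1ot1, non-coding RNAs known to stay in the nucleus, also fell. Malat1, an abundant RNA of nuclear speckles, was at 3757, 3412 and 3697 CPM in V09, V11 and V20 and at 5197, 5131 and 4793 CPM in V10, V12 and V19. The groups did not overlap, and Malat1 fell by 0.46 on the log2 scale (SE 0.05, adjusted p = 0.00411). Kcnq1ot1, the paternally expressed RNA that silences an imprinted cluster, was at 175, 165 and 175 CPM in nPM and 256, 232 and 255 CPM in control libraries. That was a fall of all 3 nPM libraries below all controls (log2 fold change -0.52, SE 0.05, adjusted p = 0.00396), at chr7:143212155-143296549 (mm10). Gm45159, a lincRNA on chromosome 7, fell by 0.60 on the log2 scale (SE 0.06, adjusted p = 0.00396) from 69.3 to 74.0 CPM in controls to 44.9 to 50.4 CPM in nPM.

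Other known nuclear RNAs were looked up after these values were seen. Meg3 (log2 fold change -0.46, SE 0.07) and Mirg (-0.40), maternally expressed RNAs of the imprinted Dlk1-Dio3 region, passed, with adjusted p-values of 0.0166 and 0.0168. Ftx, a regulator of Xist, passed as well (-0.53, SE 0.08, adjusted p = 0.0180), as did Mir124a-1hg, the host of a neuronal microRNA (-0.45, adjusted p = 0.0153). Neat1 (-0.45), Miat (-0.36), Rian (-0.15), Xist (-0.44) and Airn (-0.20) did not pass, with adjusted p-values of 0.0651, 0.0565, 0.192, 0.113 and 0.632. For Xist the nPM libraries were at 367 to 403 CPM and the controls at 425 to 657 CPM, so the groups did not overlap. Many of these RNAs overlap microRNA genes on the same strand, and the reads of those cannot be told apart from theirs.

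Among the 87 coding genes that fell, the median log2 fold change was -0.31, with values from -1.11 to -0.21. All 196 genes that fell, and 35 of the 39 that rose, had nPM and control libraries that did not overlap, where 23% of all genes tested had such groups. The called genes were chosen by their p in these same libraries, so this separation largely follows from the choice and is not support for it. Ttc14, a tetratricopeptide gene, had the smallest p of the coding genes that fell. Its values were 119, 107 and 114 CPM in V09, V11 and V20, and 154, 164 and 163 CPM in V10, V12 and V19. All nPM libraries were lower (log2 fold change -0.51, SE 0.05, adjusted p = 0.00396). Atp11b, a phospholipid flippase, fell by 0.50 and R3hdm1, a gene with an RNA-binding domain, by 0.45 on the log2 scale, both with an adjusted p of 0.00396. Both of these and Ttc14 passed without any 1 library.

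Nktr, a cyclophilin with a domain like those of splicing factors, was at 145, 142 and 148 CPM in nPM and 187, 190 and 187 CPM in control libraries. The spread within each group was narrow, and Nktr fell by 0.37 on the log2 scale (SE 0.04, adjusted p = 0.00417). Abcc5, an exporter of cyclic nucleotides, fell by 0.40 (adjusted p = 0.00458). The other coding genes of smallest p that fell were Oser1, a gene of the response to oxidative stress, at -0.75, and Nav2, which guides neurite growth, at -0.32. With them were Snhg11 at -0.47, which the annotation gives as coding, Pnisr, a splicing-related gene, at -0.33 and Zcchc7, of the nuclear RNA exosome pathway, at -0.42. Tia1, an RNA-binding protein of stress granules, was at -0.30 and Cspp1, of centrosomes and cilia, at -0.33. Adjusted p-values of these 7 genes were 0.0111 to 0.0166.

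**Figure D4:**
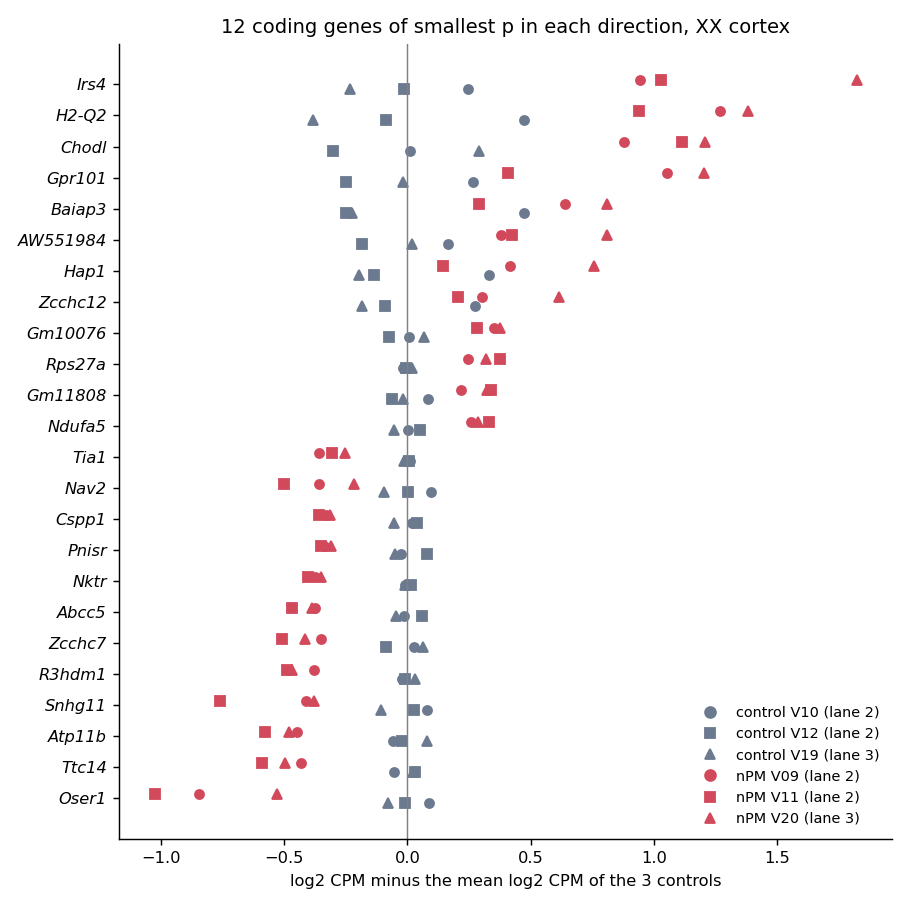
Level in each XX cortex library of the 12 coding genes of smallest p in each direction, as log2 CPM minus the mean of the 3 controls; the marker shape gives the library and so the sequencing lane. For all 12 genes that fell the nPM libraries lie left of every control, while for Hap1, Zcchc12 and Baiap3 the control V10 lies within the nPM range.

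Several splicing genes fell, while the list of SR, hnRNP and CLK genes kept a median near that of all genes. Of its 37 members, 4 fell and 1 rose (13.5% called, where 1.38% of all genes were), and the median log2 fold change was -0.03. Clk1 and Clk4, kinases that phosphorylate SR proteins, were at -0.37 (SE 0.06, adjusted p = 0.0170) and -0.40 (SE 0.07, adjusted p = 0.0200). Clk1 was at 108, 94.0 and 99.4 CPM in V09, V11 and V20 and at 134, 135 and 124 CPM in V10, V12 and V19, without overlap. The SR protein Srsf5 (-0.32) and the splicing activator Tra2a (-0.23) also fell, with adjusted p-values of 0.0208 and 0.0491. Hnrnpab, an RNA-binding protein of growing neurons, rose by 0.23 (adjusted p = 0.0435). The 8 further genes of RNA processing given next were picked after their values were seen, and all fell: Prpf39 (-0.35), Leng8 (-0.37), Luc7l2 (-0.27), Luc7l3 (-0.33), Arglu1 (-0.30), Srrm2 (-0.31), Snrnp70 (-0.31) and Rbm5 (-0.23). Some of these genes make transcripts with retained introns that stay in the nucleus, and gene counts do not separate such transcripts.

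Calcium and potassium channel genes gave a second group. Of 52 calcium signalling genes, 4 fell and 1 rose (9.62%, against 1.385% of all genes), 13 were above 0, and the median was -0.06. Cacna1d, a voltage-gated calcium channel, was at 60.4, 53.6 and 57.4 CPM in nPM and at 76.5, 71.3 and 71.6 CPM in control libraries, without overlap (log2 fold change -0.34, SE 0.05, adjusted p = 0.0168). Ryr2, the release channel of the endoplasmic reticulum, was at -0.40 (SE 0.06, adjusted p = 0.0179). The inositol trisphosphate receptors Itpr1 and Itpr2 were at -0.31 and -0.34, with adjusted p-values of 0.0377 and 0.0484. Camk2d, a calcium-dependent kinase, rose by 0.27 (SE 0.05, adjusted p = 0.0398), from 105 to 117 CPM in controls to 127 to 140 CPM in nPM.

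Of 74 potassium channel genes, 4 fell and 0 rose (5.41%, against 1.385% of all genes), and the median was -0.07. Kcnh5 and Kcnh7, of the ether-a-go-go family, were at -0.51 (SE 0.08, adjusted p = 0.0176) and -0.33 (SE 0.06, adjusted p = 0.0246). Kcnt2, a sodium-activated channel, and Kcnc2, a fast channel of interneurons, were at -0.35 and -0.26. Kcnc2, like Ecel1 and Ndufs5 below, passed in none of the fits without 1 library. Cacna1d, Ryr2, Itpr1, Itpr2, Camk2d, Kcnt2 and Kcnh7 each passed in only 1 of these fits, and Kcnh5 in 2. Of 36 release genes, 2 fell and 0 rose (5.56%, against 1.385% of all genes). These were Unc13b, which primes vesicles (-0.28, SE 0.04, adjusted p = 0.0170), and Syn1, which tethers them (-0.27, SE 0.05, adjusted p = 0.0270). The list median was -0.05 and became 0.03 without V20. Of 22 glutamate receptor genes none passed (edgeR, 0 adjusted), 5 were above 0 and the median was -0.07. The NMDA receptor subunit Grin2b was at 803, 768 and 815 CPM in nPM and at 975, 897 and 1060 CPM in control libraries (log2 fold change -0.30, SE 0.07, adjusted p = 0.0618). Grin2a (-0.33), Grik5 (-0.24) and Grik3 (-0.12) had adjusted p-values of 0.0708, 0.0651 and 0.214.

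Fold changes also differed with the length of the gene. Coding genes were put into 5 equal groups by the genomic span from first to last exon. In the shortest group, of spans up to 8423 bases, 14 genes rose and 2 fell, and the median log2 fold change was 0.06 over 2836 genes. In the longest group, of spans from 80830 bases, 3 rose and 41 fell, and the median was -0.04. The medians of the groups between were 0.04, 0.02 and 0.00. Whether intronic reads entered the exon counts was not tested.

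Genes that rose in the nPM pups were fewer, with 32 coding genes at a median of 0.34. Hap1, a huntingtin-associated protein of vesicle transport that is abundant in the hypothalamus, had the smallest p. It was at 78.5, 65.0 and 99.3 CPM in V09, V11 and V20 and at 74.1, 53.6 and 51.3 CPM in V10, V12 and V19, so the groups overlapped before the adjustment for RIN. The fitted log2 fold change was 0.53 (SE 0.05, adjusted p = 0.00396), and it was 0.18 between the group means within lane 2 and 0.95 between the 2 libraries of lane 3. Zcchc12, a transcriptional coactivator on the X chromosome, was at 93.0, 86.9 and 115 CPM in nPM and at 91.1, 70.8 and 66.4 CPM in control libraries. It also overlapped, with a fitted value of 0.45 (SE 0.05, adjusted p = 0.00411) and values of 0.16 in lane 2 and 0.80 in lane 3. The control V10, which had the lowest RIN of the 6 (9.4), was the highest of the controls for both.

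Several genes that rose are known from the hypothalamus and nearby regions rather than the cortex. Gpr101, an orphan receptor, was at 6.12, 3.91 and 6.79 CPM in nPM and at 3.54, 2.48 and 2.91 CPM in control libraries, without overlap (log2 fold change 0.99, SE 0.17, adjusted p = 0.0208). Irs4, an insulin receptor substrate, was at 1.63, 1.73 and 3.00 CPM in nPM and at 1.00, 0.838 and 0.720 CPM in control libraries (1.38, SE 0.25, adjusted p = 0.0277). Baiap3, which acts in dense-core vesicle release, was at 0.68 (SE 0.10, adjusted p = 0.0166) with overlapping groups. Of 27 listed thalamic, hypothalamic and septal genes, 15 were tested, 14 were above 0 and the median was 0.21. Of the 15, 3 rose (20%: Gpr101, Irs4 and Zcchc12), where 0.23% of all genes rose. The summed level of the 27 genes was 227 to 293 CPM in nPM and 204 to 236 CPM in control libraries (two-sided exact permutation p = 0.2), 3 of the 27 lay above all controls, and the hypothalamic factor Six6 was at 0 in all 6 libraries. The median was 0.14 in lane 2 and 0.75 in lane 3. Markers of choroid plexus and meninges stood above 0 as well, while striatal genes had a median of 0.05. Of 17 striatal genes tested 13 were above 0 and 1 rose (5.88%, where 0.23% of all genes rose). Their medians were -0.20 in lane 2 and 0.48 in lane 3. The summed level of the 18 listed striatal genes was 589 to 634 CPM in nPM and 472 to 811 CPM in control libraries (two-sided exact permutation p = 0.8). Of 12 choroid plexus genes 11 were above 0, with a median of 0.24 (0.06 in lane 2 and 0.43 in lane 3), none passed, and their summed level was 403 to 531 CPM in nPM and 354 to 409 CPM in control libraries, which overlapped (two-sided exact permutation p = 0.2). Of 14 meningeal genes 12 were above 0, with a median of 0.255, none passed the adjusted threshold and 2 were under the unadjusted 0.005. Their summed level was 345 to 462 CPM in nPM and 299 to 538 CPM in control libraries, so the nPM range lay within that of the controls. None of the choroid plexus or meningeal genes was at 0 in all 6 libraries. The part of neighbouring tissue in these dissections was not tested.

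Among genes of cortical interneurons, Nr2f2 and Calb2 rose while the list median stayed near 0. Of 24 cortical interneuron genes, 2 rose and 0 fell (8.33%, against 1.385% of all genes called), 15 were above 0, and the median was 0.05. At an unadjusted p under 0.005 in edgeR, 2 were higher and 1 was lower. Nr2f2, a nuclear receptor of interneurons from the caudal ganglionic eminence, was at 21.01, 25.4 and 27.5 CPM in nPM and at 16.3, 14.8 and 17.5 CPM in control libraries. The groups did not overlap (log2 fold change 0.61, SE 0.11, adjusted p = 0.0286). Calb2, the calcium-binding protein calretinin, was at 0.51 (SE 0.10, adjusted p = 0.0377). Sst, of another interneuron class, was at -0.02 (adjusted p = 0.873). Fabp7, the lipid-binding protein of radial glia, rose by 0.36 (SE 0.07, adjusted p = 0.0377). It was the only 1 of 17 radial glia and progenitor genes that passed (5.88%, against 1.385% of all genes). Ecel1, a neuronal endopeptidase, was at 0.95 (SE 0.18, adjusted p = 0.0360), with values of 4.03 to 5.77 CPM in nPM and 1.68 to 4.32 CPM in controls, which overlapped.

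The remaining coding genes of smallest p that rose were Chodl, a membrane lectin, at 1.04, and H2-Q2, a class I histocompatibility gene, at 1.28. AW551984 was at 0.59 and the predicted genes Gm10076 and Gm11808 were at 0.34 and 0.30. Their adjusted p-values were 0.0154 to 0.0277. H2-Q2 was at 1.97 to 2.68 CPM in nPM and 0.788 to 1.43 CPM in controls, and belongs to a family of near-identical genes between which reads may be split. Among other gene types, Gm15801 was at 2.19, 2.76 and 4.96 CPM in nPM and at 1.08, 0.516 and 0.411 CPM in control libraries, on 12 to 111 counts (log2 fold change 2.49, SE 0.29, adjusted p = 0.00446), and it shares its strand with Aldh18a1, over which it lies. The TEC locus 2900097C17Rik rose by 0.43 (adjusted p = 0.0314) and the pseudogene Rpsa-ps10 by 0.31 (adjusted p = 0.0168).

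Ribosomal protein genes were higher as a group by a small amount. Of the 84 cytosolic ribosomal protein genes 81 were tested, all 81 had a log2 fold change above 0, and the median was 0.16 with quartiles of 0.13 and 0.18, against 0.00 over all genes. Only Rps27a passed the adjusted threshold (1.23% of the list, against 1.385% of all genes). At the unadjusted 0.005, 19 were higher, where 1.23% of all genes were. In 61 all nPM libraries lay above the controls, where 1786 of all 16970 genes did. Rps27a, which encodes ubiquitin fused to a ribosomal protein, was at 159, 174 and 167 CPM in V09, V11 and V20 and at 133, 134 and 136 CPM in V10, V12 and V19. Every nPM library was higher (log2 fold change 0.31, SE 0.05, adjusted p = 0.0166). Next in p were Rpl37 (0.25), Rps27 (0.21) and Rps25 (0.22), with adjusted p-values of 0.0511, 0.0630 and 0.0675. Ribosomal protein genes have many processed pseudogenes, so their counts depend on how shared reads were assigned.

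Transcripts of ribosomal proteins are known to begin with a C and a run of pyrimidines, through which cells control their translation as a set. RefSeq start sites (GRCm38.p6) gave a window for 60 of the 81 genes, and in 13 of these (21.7%) the start base was a C followed by 4 bases that were each C or T, as in 3.0% of tested coding genes with a window. Of the 19 genes under an unadjusted p of 0.005, 14 had a window and 4 the motif. The 4 are shown to make the shared start visible, each with 15 bases before the start and 15 from it, and with the 5 bases of the motif in capitals.
Rps27, chr3:90213634-90213663, minus strand: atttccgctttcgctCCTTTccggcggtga
Rpl35a, chr16:33056467-33056496, plus strand: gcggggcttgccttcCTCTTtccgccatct
Rps15a, chr7:118116133-118116162, minus strand: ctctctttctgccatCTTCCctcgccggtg
Rps21, chr2:180257364-180257393, plus strand: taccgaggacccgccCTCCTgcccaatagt
Their log2 fold changes were 0.21, 0.24, 0.18 and 0.23. A window without the motif says only that the letters do not begin at the annotated base, since start sites of these genes differ by a few bases between annotations.

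Few genes of energy metabolism and protein turnover passed the test. Of 75 nuclear genes for subunits of oxidative phosphorylation, 70 were above 0 and the median was 0.11. Of these, 3 rose and 0 fell (4%, against 1.385% of all genes called). Ndufa5 and Ndufs5, of complex I, were at 0.29 (SE 0.05, adjusted p = 0.0277) and 0.28 (SE 0.05, adjusted p = 0.0377), and Cox7a2, of complex IV, at 0.20 (SE 0.04, adjusted p = 0.0435). Ndufa5 was at 58.4, 61.5 and 59.6 CPM in nPM and at 49.0, 50.6 and 47.1 CPM in control libraries, without overlap. Of 12 messenger RNAs of the mitochondrial genome that were tested, 4 were above 0 and the median was -0.12. None passed (edgeR, 0 adjusted, 0 at an unadjusted p under 0.005). Among them were mt-Co2, mt-Atp8, mt-Atp6, mt-Co3 and mt-Nd3, whose levels varied at least 72.2 times between libraries, as described below. The median is therefore not a stable measure of this set. Of 36 proteasome subunit genes 33 were above 0 and the median was 0.11. None passed (edgeR, 0 adjusted), and 7 were higher at an unadjusted p under 0.005, where 1.23% of all genes were. Those of smallest p were Psma6 (0.21), Psma2 (0.20), Psmb6 (0.18) and Psmc6 (0.18), with adjusted p-values of 0.0582 to 0.0773. Of 26 genes of NRF2, the regulator of antioxidant defence, and its targets, 21 were above 0 and the median was 0.09. Only Gpx4, which reduces lipid peroxides, passed (3.85% of the list, against 1.385% of all genes). It was at 156, 148 and 123.2 CPM in nPM and 113, 106 and 106 CPM in control libraries (log2 fold change 0.38, SE 0.08, adjusted p = 0.0408). Of 19 genes of nitric oxide and arginine metabolism none passed (edgeR, 0 adjusted, 1 at an unadjusted p under 0.005), and Nos1ap, an adaptor of neuronal nitric oxide synthase, was nearest at -0.43 (adjusted p = 0.0788). Ddah1 (0.12), Ddah2 (0.22) and Gucy1a2 (-0.17) had adjusted p-values of 0.182, 0.281 and 0.291.

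**Figure D5:**
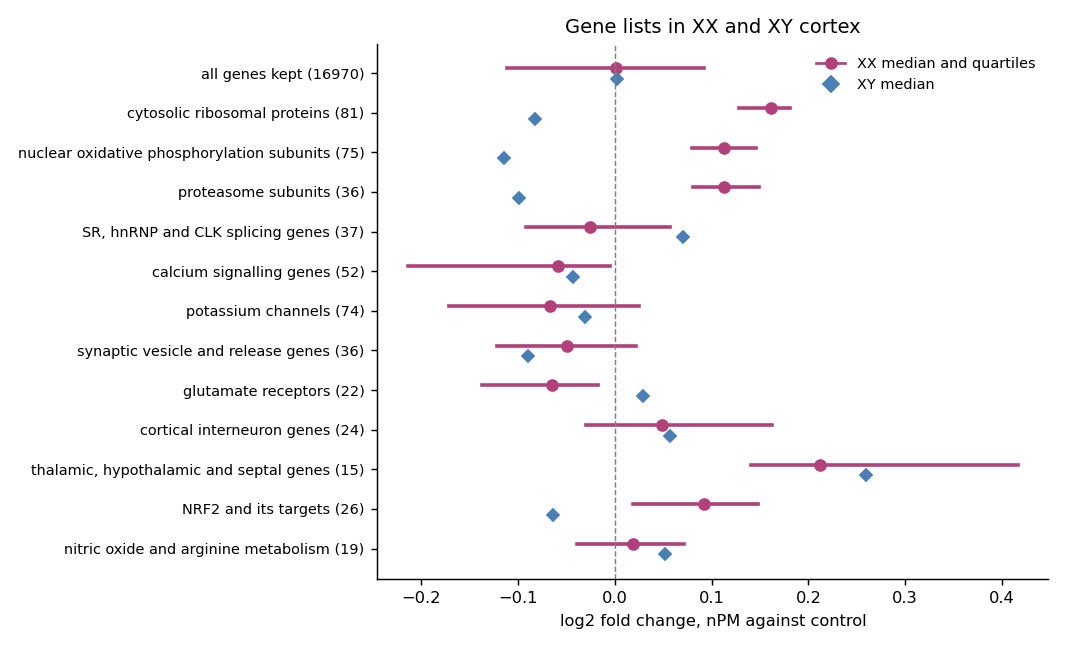
Median log2 fold change of 12 gene lists and of all genes tested, with quartiles for XX as lines and the XY median as a diamond; the number of genes tested is in brackets. Ribosomal protein genes had a median of 0.16 in XX and -0.08 in XY, while the thalamic, hypothalamic and septal genes had 0.21 and 0.26.

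Lists with no call in either direction at the adjusted threshold, beside the choroid plexus and meningeal genes given above, included the mitosis genes (24 tested, median 0.13), oligodendrocyte lineage genes (19, median -0.20), microglia genes (18, median -0.07), astrocyte genes (17, median -0.02), interferon response genes (24, median -0.03) and cytokines, chemokines and Toll-like receptor signalling (23, median -0.04). Summed marker levels overlapped between the groups for oligodendrocytes, at 711 to 946 CPM in nPM and 871 to 1112 CPM in control libraries, and for microglia, at 322 to 387 and 354 to 407 CPM.

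Genes that the study names for the cortex were followed as well. Nr2f2 and Gpr101 rose, as given above. Ephb6, an ephrin receptor, was at 120, 117 and 118 CPM in nPM and at 128, 158 and 133 CPM in control libraries, without overlap. Its log2 fold change was -0.25 (SE 0.07), with an edgeR p of 0.00497 before and 0.109 after adjustment. The unadjusted value was under the study's threshold of 0.005. In XY pups Ephb6 was at -0.24 (edgeR, unadjusted p = 0.00772). Rgl2, a Ral activator, was at -0.29 (adjusted p = 0.0606) and Col22a1, a collagen, at -0.58 (adjusted p = 0.0839). Both had an unadjusted edgeR p under the study's 0.005. Creb1 (-0.07), Bdnf (-0.06), App (0.05), Mapt (0.13) and Fgf2 (0.16) had adjusted p-values from 0.445 to 0.813. The study names these, and interferon gamma, as potential upstream regulators from its pathway analysis. Their own transcript level is another measure than the predicted regulation. Arg1, the arginase of the urea cycle, had 15, 10 and 11 counts in V09, V11 and V20 and 2, 1 and 2 counts in V10, V12 and V19, so its groups did not overlap, but it fell short of 10 counts in the controls and was not tested. Ifng, the cytokine interferon gamma, had 0 to 5 counts and was not tested either.

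Values in XY pups, from 3 nPM and 3 control libraries that the XX comparison did not use, were set beside these. In the fit of XY alone 0 of the same 16970 genes passed the adjusted threshold with edgeR, 41 (0.242%) had an unadjusted p under 0.005 and 725 (4.27%) one under 0.05. Of the 196 genes that fell in XX, 173 had an XY log2 fold change above 0, with a median of 0.18. Among all 16970 genes, 50.6% were above 0 in XY. TEC loci made up 80 of the 196, and 702 of all 885 TEC loci tested were above 0 in XY. Such loci are not independent, so 173 is a description. The 39 that rose in XX were split in XY, with 22 above and 17 below 0. The XY medians were 0.22 for TEC loci, -0.08 for ribosomal proteins and -0.12 for oxidative phosphorylation subunits. Across all 16970 genes the fold changes in XX and XY had a Pearson correlation of -0.13, which describes genes that are not independent.

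The difference between XX and XY was itself tested in the 12 cortex libraries, with 16660 genes. No gene passed at an adjusted p under 0.05 with edgeR or limma voom, 75 did with DESeq2, and 1701 (10.2%) had an unadjusted edgeR p under 0.05. Clk1 and Ttc14 had the smallest unadjusted p of the genes named here, 1.43e-05 and 1.57e-05, both with an adjusted p of 0.131. Clk1 was at -0.37 in XX and 0.31 in XY, and Ttc14 at -0.51 and 0.23. For Malat1 the values were -0.46 and 0.20 (adjusted p of the difference 0.333), and for Rps27a they were 0.31 and -0.13 (adjusted p 0.306). Nr2f2 had 0.61 in XX and 0.60 in XY, Zcchc12 had 0.45 and 0.42 and Gpr101 had 0.99 and 1.21, and for none of these did the difference pass. The TEC share shifted between the exposures by -0.43 in XX and 0.11 in XY, as differences of the mean log2 share. For the gap between these, exact permutation of the exposure labels within each sex gave p = 0.055, where the smallest possible p is 0.005. It was 0.128 after adjustment over 14 gene types and groups. That permutation assumes no exposure effect in either sex, so it does not test whether the effects in XX and XY are equal.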

How the data were processed

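Total RNA of cerebral cortex was sequenced after removal of ribosomal RNA with RiboZero Gold. Per the labels and the study's methods, the authors checked reads with FastQC, trimmed them with Trimmomatic, used HISAT2 with mm10 for alignment and featureCounts 1.5.0-p3 with GENCODE M11 for gene counting. The deposited table holds raw counts, and its strand setting was not stated. Samples were grouped by sex and exposure from the labels.

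Genes with at least 10 counts in all 6 XX libraries were tested with edgeR 4.0.16 (R 4.3.3, TMM, quasi-likelihood F test, two-sided, prior count 0.5), with exposure and RIN as terms and Benjamini-Hochberg adjustment over 16970 genes. The XX-XY difference was the exposure-by-sex term over 12 libraries. Alternatives used limma 3.58.1, DESeq2 1.42.0, other scalings, filters and covariates, and each library left out; RIN with lane was added after seeing the data. Residual degrees of freedom were 3. Named genes were the 12 coding genes of smallest p in each direction, the 3 of other types, called list members (or up to 4 of smallest p), genes the study names, and those stated as picked later. The members and the 39 lists were chosen with earlier results of these data known. No 2 libraries were copies (chi-square per gene of at least 8.64 for each pair, where sampling alone gives 1). The results of 2 genes are not reported here. Scripts were tested on simulated data.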

Additional observations from a re-analysis of the deposited data

Results flagged for a closer look

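The share of counts on 3 gene types differed in its nPM change between the sexes at an unadjusted threshold of 0.05, by exact permutation of the exposure labels within each sex. As XX minus XY of the log2 difference between nPM and control, the values and their exact permutation p were -0.44 for lincRNAs (p = 0.04), -0.26 for antisense genes (p = 0.02) and 0.15 for processed pseudogenes (p = 0.04). None passed after adjustment over the 14 gene types and groups, where all 3 had 0.128. The permutation assumes no exposure effect in either sex, so a small p is not specific to a difference between the sexes. In XX every nPM library lay below the controls for lincRNAs and antisense genes and above them for processed pseudogenes, and in XY the groups overlapped for all 3.

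Clk1 had every nPM library below the controls in XX (log2 fold change -0.37) and every nPM library above the controls in XY (0.31). The adjusted p of the difference from edgeR was 0.131, so it did not pass.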

How the results depend on the processing

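The 235 genes called in XX became 451 with DESeq2, 375 without RIN, 371 with lane in place of RIN and 1280 with a filter of at least 1 count in any library, and 225 to 284 with limma voom, RLE, library totals, 1 count in all libraries, or RIN and lane together (added after seeing the data). They became 10 with the TEC percent in place of RIN and 0 in 1 fit of 12 cortex libraries. Without 1 library they were 16 to 388. The 775 genes under an unadjusted p of 0.005 became 1642 with at least 1 count in any library, 141 with the TEC percent and 373 in the 12-library fit, and 358 to 896 without 1 library. The 0 genes for the XX-XY difference became 75 with DESeq2. Shared calls with the main result numbered 226 of 235 with DESeq2, 213 with limma voom, 224 without RIN and 2 with the TEC percent, where 203 of the 235 kept their sign. Exposure groups explained 93.8% of the variance of the TEC percent, and the median SE rose from 0.092 to 0.366 with it. With the TEC percent the sign turned for 2900097C17Rik (-0.12), Ddah1 (-0.15), Psma2 (-0.25), Mapt (-0.48), Itpr2 (0.023), Rgl2 (0.082), Grik3 (0.10), Snhg11 (0.13), Nos1ap (0.20), Nav2 (0.22), Syn1 (0.31) and Grik5 (0.63). It also turned for 3 genes when 1 library was left out, where the values ran from -0.027 (without V09) to 0.33 for Fgf2, from -0.18 to 0.079 (without V19) for Bdnf and from -0.039 (without V20) to 0.22 for Mapt. The causes of the other changes were not tested. No paired analysis was possible because the replicate names are not shared between groups. With 3 libraries per group, differences smaller than the spread of these few pups cannot be resolved.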

Other observations

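In the mitochondrial genome 6 neighbouring genes varied between XX libraries far beyond the other messenger RNAs, and their nPM and control values overlapped. mt-Co2, which encodes a subunit of complex IV, was at 336, 1202 and 44.8 CPM (unscaled) in V09, V11 and V20 and at 466, 2292 and 21.7 CPM in V10, V12 and V19. The same order of libraries, with V12 highest, held for mt-Atp8, mt-Atp6 and mt-Co3, which lie next to it, and mt-Co3 ran from 17.6 to 3241 CPM. The highest library exceeded the lowest by 72.2 to 541 times over mt-Co2, mt-Atp8, mt-Atp6, mt-Co3, mt-Nd3 and mt-Nd4l, the last of which had 2 counts in its lowest library. Over the other 7 genes the ratio was 1.09 to 1.38, and mt-Nd1, for example, ran from 1970 to 2206 CPM. The fitted log2 fold changes of mt-Co2 and mt-Co3 were -2.23 (SE 1.32) and -2.22, and neither passed the test, with adjusted p-values of 0.412 and 0.473.

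Of the XX libraries, the 2 of lane 3, V20 and V19, were the lowest for mt-Co2, mt-Atp8, mt-Atp6 and mt-Co3, while mt-Nd3 was at 5.16 CPM in V20 and 91.4 CPM in V19. The XY libraries did not follow the lanes in this way. For mt-Co2 the lane 3 library V23 was the highest of them at 792 CPM and the other, V24, was at 46.8 CPM, while the lane 2 libraries V13, V14, V15 and V16 were at 31.7, 66.1, 524 and 71.7 CPM. Whether reads of these 6 genes were shared with nuclear copies of the mitochondrial genome was not tested, so the ratios are those of the deposited counts.

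Genes that escape X inactivation were also read. Ddx3x was at 0.08, Eif2s3x at -0.14, Kdm5c at -0.13 and Kdm6a at -0.12 as log2 fold changes, and none passed the test (adjusted p 0.203 to 0.521).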
